A study of Mus musculus with 48 samples.

Results

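The genes described here carry glutamate into cells and pass it on as glutamine, and 9 of them were chosen by name from the 24421 gene entries of 6 tables of normalised reads. They are the transporter genes Slc1a1, Slc1a2 and Slc1a3, the enzyme genes Glul, Glud1 and Got1, the glutamine transporter genes Slc38a1 and Slc38a3, and the cystine and glutamate exchanger gene Slc7a11. All 9 had an entry in every table. The study sequenced RNA of cells sorted from mouse brain, with 3 libraries in each of 16 groups and 48 in all. Mice of 12 groups carried Aldh1l1-GFP, a green fluorescent protein under the promoter of an astrocyte folate enzyme, and had the treatment label Gq-Saline or Gq-CNO. CNO is clozapine-N-oxide, the ligand of designer receptors of the Gq kind. GFP astrocytes and cells titled mCh neurons were sorted from their olfactory bulb, cortex and hippocampus. GFP astrocytes of the bulb also came from Aldh1l1-GFP mice labelled CNO-control or untreated, 1 group each. The last pair held mCh astrocytes from the olfactory bulb of mice of the genotype Slc22a3-FF, treated with Gfap-mCh (the flox control) or Gfap-Cre (labelled Slc22a3-cKO), so that both of these groups share the floxed gene and a Gfap-driven construct. Ages, and the cells that carry the Gq receptor, are not given in the sources used here.

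Glutamate released at synapses is removed mainly by astrocytes, through the sodium-driven transporters GLT-1 (Slc1a2) and GLAST (Slc1a3). Glutamine synthetase (Glul), an astrocyte enzyme, turns it into glutamine, which leaves through the transporter SNAT3 (Slc38a3) and enters neurons through SNAT1 (Slc38a1), to be made into glutamate again. Glutamate dehydrogenase (Glud1) and the cytosolic aspartate aminotransferase (Got1) exchange glutamate with intermediates of energy metabolism, EAAT3 (Slc1a1) is the uptake carrier of neurons, and xCT (Slc7a11) exports glutamate in exchange for cystine, the precursor of glutathione.

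Depth ranged from 228048 to 24664376 reads per library. The GFP libraries carried the label's cell type: 12 astrocyte markers that are no members summed to 18056 to 29019 RPM (a gene's reads, scaled to 1e6 reads of its library), beside 8 oligodendrocyte markers at 749 to 3209, 11 neuron markers at 566 to 1398, 4 markers of olfactory ensheathing glia at 155 to 3047 and 10 microglia markers at 76.5 to 2430. The highest microglia sum among them was in the cortical Gq-Saline library with no replicate number. The libraries titled mCh neurons held 11 neuron markers at 1588 to 4711 RPM in sum, beside microglia markers at 3721 to 12537, 8 oligodendrocyte markers at 18277 to 60108 and astrocyte markers at 1421 to 9020. The mCh astrocytes of the olfactory bulb held microglia markers at 4282 to 10726, astrocyte markers at 904 to 6345, neuron markers at 374 to 4023 and oligodendrocyte markers at 778 to 3663. No astrocyte marker was at 0 in any library. A lower level of a gene in such sorted pools cannot be told apart from a smaller share of the cells that express it.

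Slc1a2 had the highest median level per length of the 9 genes in the GFP sorts of each region and in both GFP control groups. Its reads were 6.22% to 10.6% of all reads in the cortical GFP libraries, 7.15% to 9.57% in the hippocampal ones and 3.07% to 3.96% in the Gq libraries of the olfactory bulb. Per length, taken as all annotated exons of a gene merged, the 4 leading members of the GFP sorts were Slc1a2, Glul, Glud1 and Slc1a3. In the cortex their medians were 6590, 2174, 712 and 536 RPKM (RPM per kilobase of merged exons), over 6 libraries. In the hippocampus they were 5967, 1839, 806 and 487 RPKM. In the olfactory bulb Slc1a2, with a median of 2573 RPKM (2334 to 3013), overlapped with Glul, with a median of 2222 RPKM (2061 to 2376). Glud1 and Slc1a3 overlapped in cortical libraries, at 437 to 881 and 440 to 593 RPKM, and were apart in the olfactory bulb, at 649 to 899 and 440 to 492 RPKM.

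The lower members in GFP sorts were Slc38a3, Slc7a11, Got1, Slc38a1 and Slc1a1, in this order of median RPKM in each region. In the olfactory bulb Slc38a3 stood at 45.8 to 84.8 RPKM and Slc7a11 at 14.1 to 22.9 RPKM, without overlap, whereas their ranges overlapped in the cortex (27.9 to 53.1 and 20.2 to 41.8 RPKM). The neuronal uptake gene Slc1a1 had a median of 3.69 RPM over the 24 GFP libraries, and some of these libraries held 0 reads of it. Over the 18 libraries titled mCh neurons it had a median of 77.0 RPM, between 43.6 and 140.3 RPM.

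**Figure D1:**
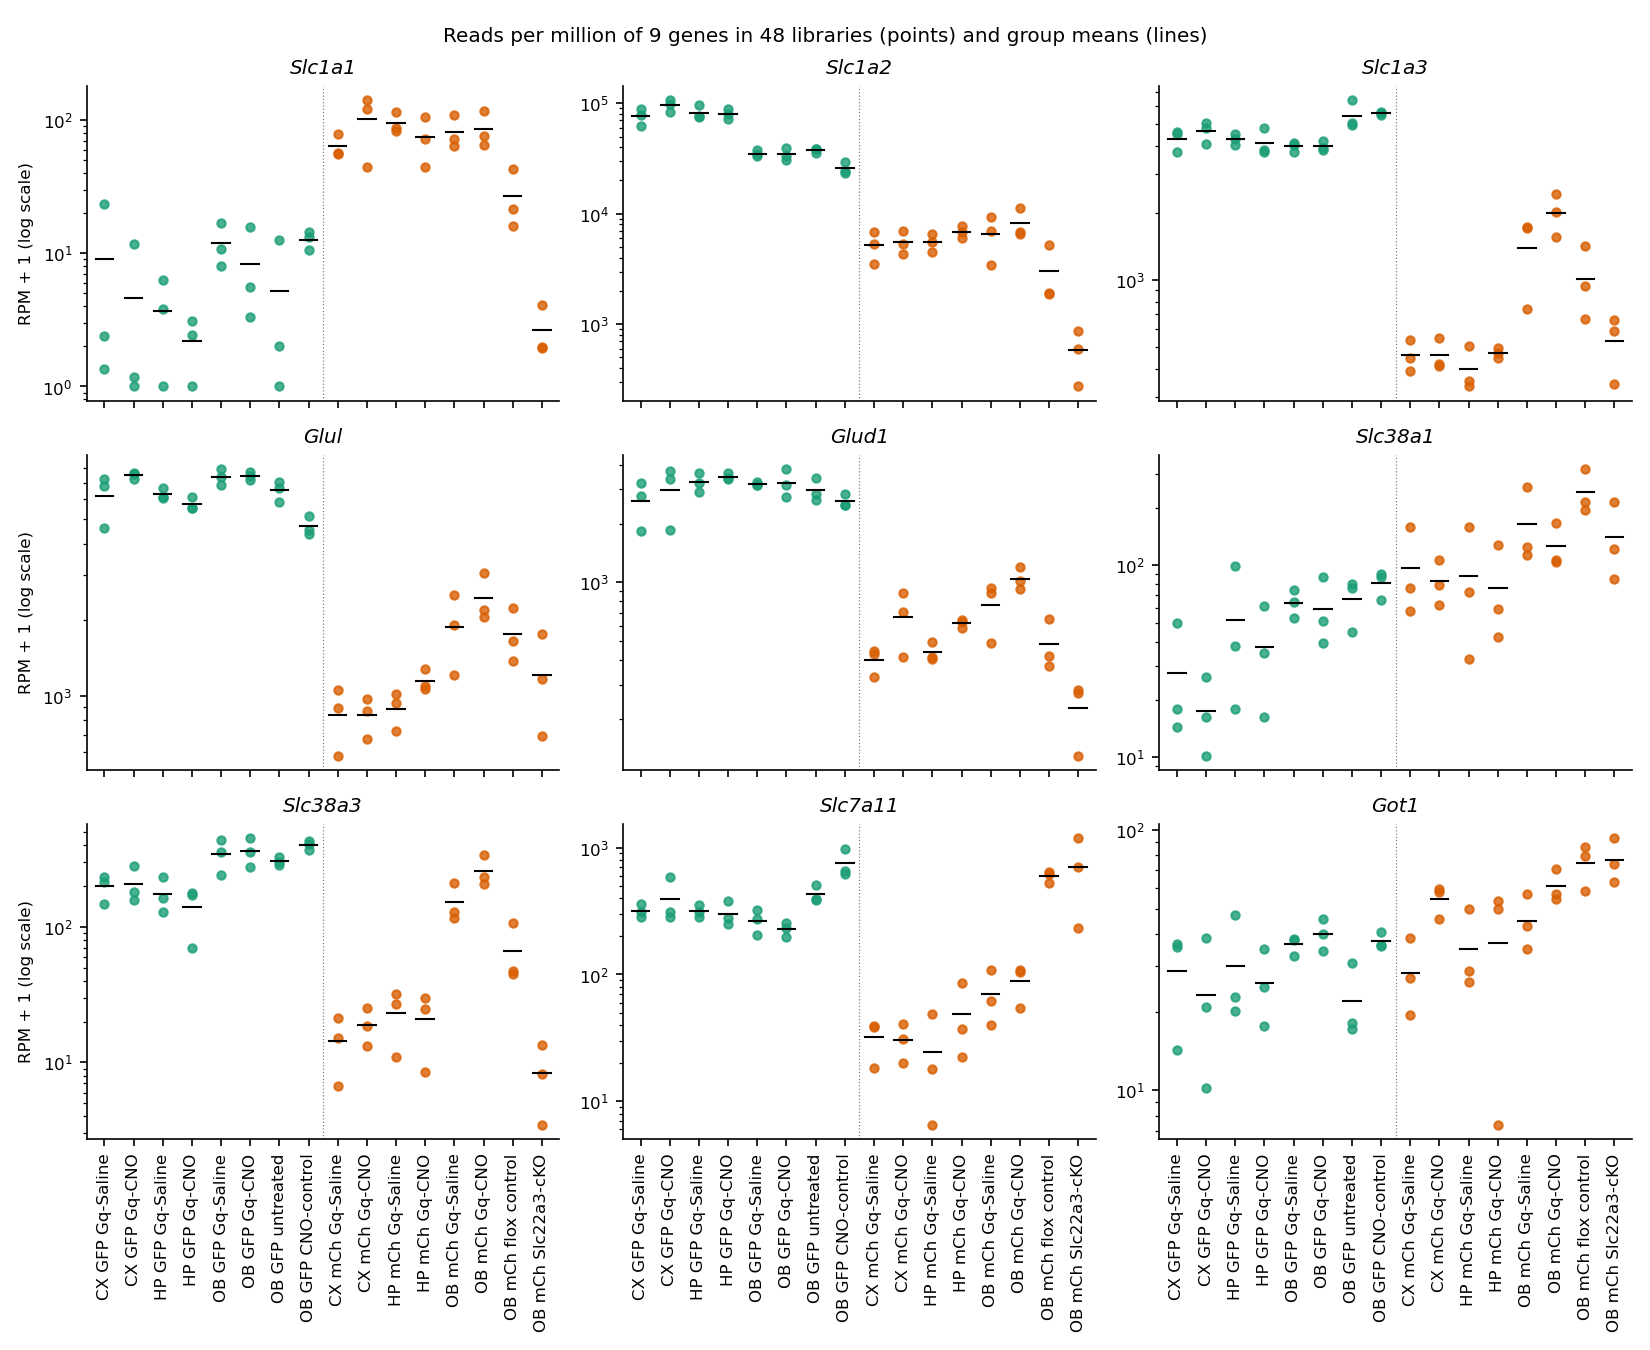
RPM plus 1, on a log axis, of the 9 genes in each of the 48 libraries (points) with the group mean (line), for GFP sorts (green) and mCh sorts (orange) from cortex (CX), hippocampus (HP) and olfactory bulb (OB). Slc1a2 lies between 23429 and 106339 RPM in GFP libraries and between 272 and 11256 RPM in mCh libraries, and Slc7a11 is between 5.55 and 108 RPM in the sorts titled neurons but between 232 and 1181 RPM in the mCh astrocytes.

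The order was another in the mCh astrocytes. In the flox controls the median levels were 497 RPKM for Glul, 147 for Slc1a2, 110 for Slc1a3, 99.7 for Glud1 and 44.4 for Slc7a11. In the libraries labelled Slc22a3-cKO they were 352 RPKM for Glul, 69.1 for Slc1a3, 64.5 for Glud1, 50.8 for Slc7a11 and 45.6 for Slc1a2, so that 4 members stood above Slc1a2 there.

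The stretches before the start of Slc7a11 and Got1 are shown because, of the members' windows searched, only theirs hold the letters in capitals. They were selected by these letters, so a match says nothing about the members' levels. Each is the 150 bases before the RefSeq start (build GRCm38.p6), at chr3:50443614-50443763 and chr19:43524606-43524755, both on the minus strand. Capitals mark TGATGNAA, the letters of the amino acid response element that ATF4 is known to bind, searched on both strands.
Slc7a11: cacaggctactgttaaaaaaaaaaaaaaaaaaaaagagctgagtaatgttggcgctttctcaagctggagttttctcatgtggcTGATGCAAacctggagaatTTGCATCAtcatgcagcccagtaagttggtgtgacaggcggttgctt
Got1: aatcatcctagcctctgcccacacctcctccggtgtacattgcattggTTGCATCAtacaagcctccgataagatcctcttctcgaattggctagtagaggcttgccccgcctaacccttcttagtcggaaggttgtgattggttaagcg
Slc7a11 holds the letters in both orientations, 66 and 47 bases before the start, and Got1 holds them once, 102 bases before it. RefSeq windows of 300 bases (250 before the start and 50 after) were matched for 7 of the 9 members, and the other 5 matched windows hold no copy. Among all 32851 such windows, 3.97% hold at least 1 copy. The letters TGACNNNGC, the core of the antioxidant response element, were in 12.4% of windows and in none of the 7. The Slc1a2 window, at chr2:102706188-102706487, lies inside the gene. The bases before the GENCODE start of Slc1a2, at 102658659, were not searched. A match is a run of letters and was not tested for binding.

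GFP and mCh sorts of the same region were compared to see which members are carried by the astrocytes. Slc1a2, Slc1a3, Glul, Glud1, Slc38a3 and Slc7a11 were higher in GFP sorts in each region, Slc1a1 was lower in each, and Got1 passed in none. In the cortex the 6 GFP libraries had 62157 to 106339 RPM of Slc1a2 (median 86540) and the 6 mCh libraries 3527 to 6933 RPM (median 5342). The 2 sets lie far apart, by 4.21 on the log2 scale (SE 0.16, limma adjusted p = 3.85e-13, an 18.5-fold difference). The hippocampal difference was 3.80 (SE 0.13, 3.5e-15) and that of the olfactory bulb 2.34 (SE 0.18, 1.15e-09). Log2 differences are taken on log2(value + 1) of reads scaled over the 12 libraries, and members were called at a limma p, adjusted over all tested genes, under 0.05.

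The other uptake gene, Slc1a3, was higher in cortical GFP sorts by 3.47 (SE 0.16), in the hippocampus by 3.37 (SE 0.14, 10.3-fold) and in the olfactory bulb by 1.34 (SE 0.17, 2.53-fold). Glul, the enzyme of glutamine synthesis, differed by 3.22 (SE 0.17), 2.66 (SE 0.13) and 1.86 (SE 0.15), and the dehydrogenase gene Glud1 by 2.6 (SE 0.20), 2.76 (SE 0.13) and 1.89 (SE 0.15). The glutamine exporter gene Slc38a3 had 147 to 280 RPM in cortical GFP and 5.75 to 24.1 RPM in cortical mCh libraries, without overlap (log2 3.91, SE 0.42). In the olfactory bulb Slc38a3 had 241 to 448 RPM in GFP and 115 to 335 RPM in mCh libraries, which overlap, and differed by 0.87 (SE 0.20, limma adjusted p = 0.0015). Slc7a11 differed by 3.73 (SE 0.36), 3.63 (SE 0.43) and 1.76 (SE 0.24).

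In the cortex 8 of the 9 members were called, 6 of them higher, where 28% of 10732 genes were called in either direction. In the hippocampus 7 were called, 6 of them higher (29.4% of 12709 genes called), and in the olfactory bulb 8, again 6 of them higher (29.9% of 12858 genes). Slc1a1 was lower in GFP sorts, at -4.95 (SE 0.95) in the cortex, -6.24 (SE 0.89) in the hippocampus and -3.37 (SE 0.40) in the olfactory bulb. Slc38a1, the importer known from neurons, was lower, at -1.97 (SE 0.50) in the cortex and -1.19 (SE 0.25) in the olfactory bulb, while its hippocampal value was -0.89 (SE 0.49, adjusted p = 0.19). The 12 astrocyte markers were all called higher in GFP sorts, with medians of 3.78, 3.46 and 1.49 in cortex, hippocampus and olfactory bulb. The mCh libraries of the olfactory bulb had 3725 to 9020 RPM of these markers in sum, against 1421 to 3226 RPM in the other mCh libraries of Gq mice. Other markers were lower in GFP sorts. In the same order of regions, medians were -2.84, -2.39 and -1.91 for neuron and -5.87, -5.69 and -6.55 for microglia markers. They were -3.95, -4.72 and -4.62 for oligodendrocyte and -6.69, -7.18 and -6.12 for precursor markers. Which of these cells carry Slc1a1 and Slc38a1 was not tested. Whether the sort difference itself differs between regions was not tested.

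Of a wider list of 32 genes of glutamate handling, 30 have an entry, and 20 to 25 were tested for the sort difference. In the cortex 5 were called higher and 4 lower, in the hippocampus 5 and 4, and in the olfactory bulb 8 and 5. Slc25a18, a mitochondrial glutamate carrier gene, was higher in GFP sorts by 5.10 (SE 0.48), 3.96 (SE 0.42) and 2.10 (SE 0.25). Slc17a7, the gene of a vesicular glutamate transporter of neurons, was lower, at -3.92 (SE 0.74), -3.30 (SE 0.44) and -3.96 (SE 0.51). Prodh, which encodes the proline oxidase that leads to glutamate, was higher by 3.68 (SE 0.70) in the cortex and 3.73 (SE 0.63) in the hippocampus.

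**Figure D2:**
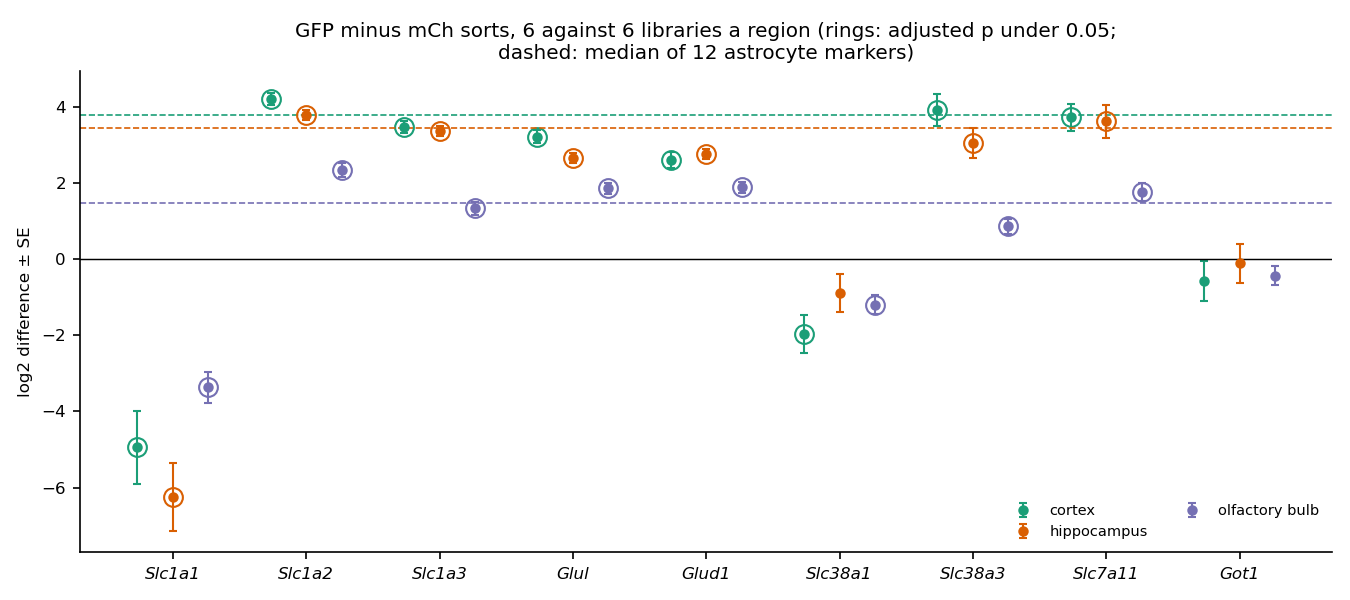
Log2 difference, GFP minus mCh sorts, of the 9 genes in 3 regions, with SE bars, 6 against 6 libraries a region. Rings mark an adjusted p under 0.05 and dashed lines the median of the 12 astrocyte markers: 6 members lie above 0 in each region, and Slc1a1 lies between -6.24 and -3.37.

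Slc1a2 was lower in astrocytes of the olfactory bulb than in those of the cortex and hippocampus, while Glul did not pass the test. In GFP sorts the lowest, median and highest Slc1a2 levels were 30656, 33795 and 39574 RPM in the 6 olfactory bulb libraries. They were 62157, 86540 and 106339 RPM in the cortex, and 71542, 78359 and 95735 RPM in the hippocampus. All 6 olfactory bulb libraries lie below all 12 others. The difference was -1.46 on the log2 scale against the cortex (SE 0.12, limma adjusted p = 6.36e-08, 2.75-fold lower) and -1.33 against the hippocampus (SE 0.12, 2.78e-07, 2.51-fold lower). Over all tested genes the median difference was 0.40 and 0.20. With quantile normalization both Slc1a2 differences are 0 by construction, since Slc1a2 has rank 2 by reads in all 18 GFP libraries of that fit, below the ribosomal RNA entry Rn45s (12.3% to 22.5% of reads), so that this setting cannot show them.

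Of the 9 members, 2 were called lower in the olfactory bulb than in the cortex, where 1.8% of 12921 genes were, and 0 higher, where 3.22% were. With RPM scaling the calls over all genes were 481 higher and 153 lower, against 416 and 233. The second member called was Slc1a3, at 3754 to 4204 RPM in the olfactory bulb (median 3972) and 3756 to 5066 RPM in the cortex (median 4572). These ranges overlap, the difference of -0.33 (SE 0.09, adjusted p = 0.0477) is small, and 23 of 29 alternatives ended the call, among them edgeR (adjusted p = 0.124, range over alternatives 0.00668 to 0.509). Against the hippocampus 1 member was called lower, where 1.42% of genes were, and 1 higher, where 2.24% were. The latter is Slc38a3, with 241 to 448 RPM in the olfactory bulb and 69.4 to 233 RPM in the hippocampus. All 6 olfactory bulb libraries lie above the hippocampal ones (log2 1.13, SE 0.22, adjusted p = 0.00318, 2.18-fold), and the call ended only without the mean-variance trend of limma (0.0551, the highest of a range that starts at 0.000157).

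Glul stood at 6849 to 7896 RPM in the olfactory bulb, 4630 to 7618 RPM in the cortex and 5529 to 6670 RPM in the hippocampus. Its differences were -0.03 (SE 0.09, adjusted p = 0.892) against the cortex, a sign that turns with quantile normalization (0.25, adjusted p = 0.0285), and 0.20 (SE 0.09, 0.373) against the hippocampus, which was called without the libraries that have no replicate number (0.26, adjusted p = 0.033) and with quantile normalization (0.38, 0.000694). Slc38a1 was at 1.5 (SE 0.47, adjusted p = 0.075) against the cortex, and was called without the cortical Gq-Saline library that has no number (1.80, 0.0124) or the hippocampal one (1.5, 0.0464), without all 4 such libraries (1.60, 0.000367) and with quantile normalization (1.51, 0.0422), over a range of 0.000367 to 0.2. Glud1 gave 0.08 (SE 0.13) and -0.17 (SE 0.13), and Slc7a11 gave -0.65 (SE 0.22, adjusted p = 0.0895), which was called without the libraries that have no replicate number (-0.44, 0.0233), and -0.43 (SE 0.22, 0.413). Slc1a3 was at -0.18 against the hippocampus (adjusted p = 0.471) and was called with quantile normalization (-0.32, 0.0286). No member passed between cortex and hippocampus: limma called 0 of 9 (0.0851% of genes higher and 0.0619% lower over all genes), with 2 members at an unadjusted p under 0.05, and edgeR and DESeq2 called 0 too. Without the 4 libraries that have no replicate number, Glul was called there (0.38, adjusted p = 0.0193). Of the 12 astrocyte markers, 2 were called higher and 5 lower against the cortex (median -0.29, between -1.03 and 1.69), and 0 and 3 against the hippocampus (median -0.36, between -0.74 and 0.39). Against the cortex 2 of 11 neuron markers and 1 of 5 endothelial markers were called higher, and in each comparison 1 of 8 oligodendrocyte markers was called higher and 1 lower. Markers of olfactory ensheathing glia, a cell type of the bulb, were higher by a median of 3.61 (3 of 4 called) and 4.73 (4 of 4), and summed to 514 to 1017 RPM in these bulb libraries against 155 to 812 RPM in the others; 1 of these 4 markers is also in the oligodendrocyte list. Their part in the member differences was not tested.

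Ratios of reads within a library do not depend on the scaling between tables. The Slc1a2 to Slc1a3 ratio had a median of 8.47 in the olfactory bulb (7.29 to 10.1), 18.3 in the cortex (16.5 to 24.3) and 18.9 in the hippocampus (16.7 to 23.8). The bulb's ratios lie below all others, 2.20-fold below the cortex and 2.22-fold below the hippocampus on average (exact two-sided permutation test of mean log2 ratios, 6 against 6 libraries, p = 0.00216 each, adjusted over 3 pairs p = 0.00325). Cortex and hippocampus gave a log2 difference of -0.02 (exact permutation p = 0.905). The Glul to Slc1a2 ratio was 0.195 to 0.242 in the bulb, 0.0714 to 0.0867 in the cortex and 0.0617 to 0.0820 in the hippocampus, again without overlap between the bulb and the rest. It was 2.69-fold and 2.88-fold higher in the bulb (exact permutation p = 0.00216 each, adjusted p = 0.00325), and 1.07-fold higher in the cortex than in the hippocampus (exact permutation p = 0.258). With the Gq-Saline libraries alone, 3 against 3, the ratios also did not overlap between bulb and cortex or hippocampus, and the exact p of 0.1 is the smallest that size allows.

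**Figure D3:**
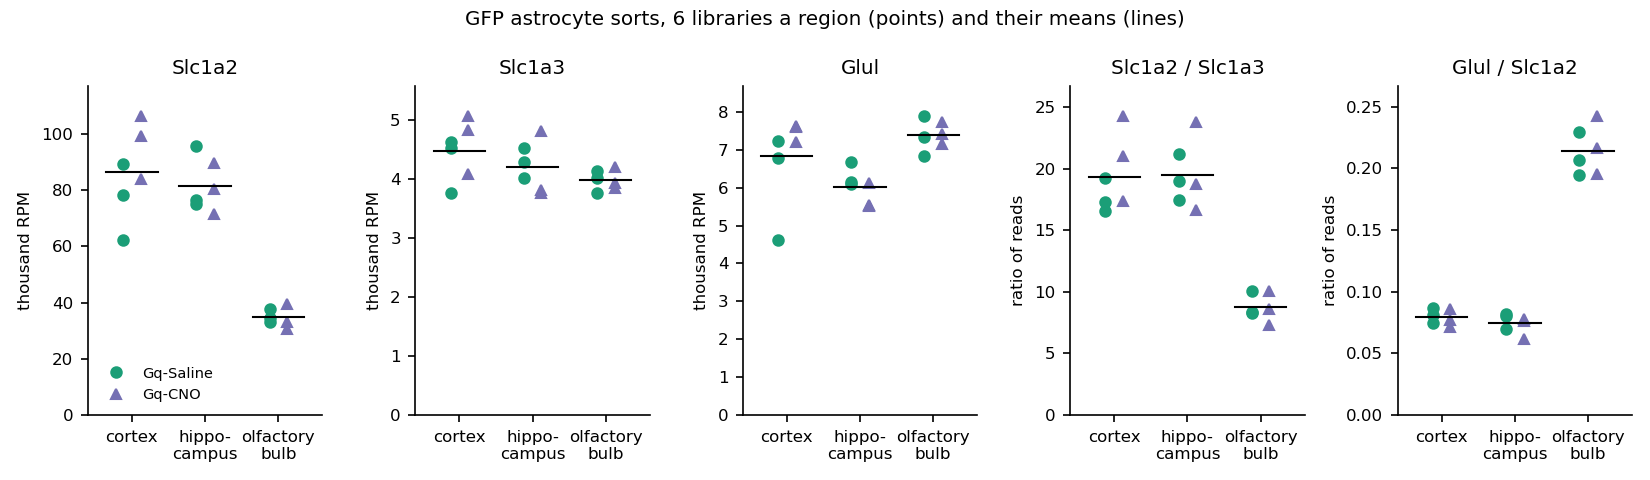
Levels of Slc1a2, Slc1a3 and Glul in RPM, on axes scaled as labelled, and 2 ratios of reads, in the GFP sorts of 3 regions (circles Gq-Saline, triangles Gq-CNO, line the mean of 6 libraries). The olfactory bulb libraries are below all others in Slc1a2 and in the Slc1a2 to Slc1a3 ratio (7.29 to 10.1 against 16.5 to 24.3) and above them in the Glul to Slc1a2 ratio.

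Of the wider list, 25 genes were tested across GFP regions. Slc1a5, which encodes the neutral amino acid exchanger ASCT2, was higher in the olfactory bulb by 3.45 (SE 0.81, adjusted p = 0.0131) and 3.64 (SE 0.81, 0.00967). It was near the floor, at 1.17 to 8.56 RPM in the bulb (median 2.05), 0 to 0.697 RPM in the cortex and 0 to 0.527 RPM in the hippocampus. Prodh was lower in the bulb than in the cortex, at -1.36 (SE 0.32, 0.013). Slc1a5 and Prodh were the only list genes called in either comparison, and 0 were called between cortex and hippocampus.

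In the sorts titled mCh neurons the olfactory bulb held more of 4 astrocyte members. Slc1a3 had 736 to 2437 RPM there (median 1717), 390 to 547 RPM in the cortex and 332 to 506 RPM in the hippocampus, so that the bulb lies above both. The differences were 1.79 (SE 0.20, limma adjusted p = 2.08e-08) and 1.90 (SE 0.20, 8.46e-09). Slc38a3 had 115 to 335 RPM in the bulb, against 5.75 to 24.1 and 7.53 to 31.2 RPM, and differed by 3.68 (SE 0.45) and 3.34 (SE 0.45). Glul was higher by 1.31 (SE 0.18) and 1.05 (SE 0.18), and Glud1 by 0.78 (SE 0.19, adjusted p = 0.00785) and 0.75 (SE 0.19, 0.0159).

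Slc1a2 did not pass in these sorts, with 3451 to 11256 RPM in the bulb and 3527 to 6933 RPM in the cortex. Its differences were 0.39 (SE 0.18, adjusted p = 0.188) and 0.18 (SE 0.18, 0.772), which quantile normalization raised to 0.88 and 0.50 and over the threshold (adjusted p = 3.45e-05 and 0.0329, ranges over alternatives 3.45e-05 to 0.531 and 0.0329 to 0.982). Without the bulb's Gq-Saline replicate 1, the lowest of its group, the difference from the cortex was called too (0.60, adjusted p = 0.0171). Within libraries, the Slc1a2 to Slc1a3 ratio of reads was 3.44 to 5.39 in the bulb's mCh libraries. It was 9.05 to 16.5 in the cortical and 12.3 to 16.7 in the hippocampal mCh libraries, both without overlap with the bulb. The ratios of mCh sorts were not tested. Slc7a11 was at 1.31 (SE 0.49, adjusted p = 0.0914) and 1.47 (SE 0.49, 0.0962), of which the first was called by DESeq2 (1.37, adjusted p = 0.0444) and the second without the hippocampal Gq-Saline replicate 2 (1.83, 0.0325, range 0.0325 to 0.3). Thus 4 of 9 members were called higher against the cortex (5.58% of 12358 genes; 2.99% were lower) and 4 against the hippocampus (2.29%; 1.62% lower). With quantile normalization the calls over all genes against the cortex were 438 higher and 369 lower, in place of 690 and 370. No member was called between cortex and hippocampus in these sorts (0.186% of genes higher, 0.202% lower), with 0 members at an unadjusted p under 0.05 and 0 called by edgeR or DESeq2. The median difference over all genes was 0.39 and 0.14 for the bulb. Of the 12 astrocyte markers, 9 were called higher in the bulb in each comparison, with medians of 1.70 and 1.62, and 5 and 3 of 10 microglia markers were lower. Of 11 neuron markers 2 were called higher and 3 lower against the cortex, and 1 each way against the hippocampus. The share of the member differences that moves with these markers was not tested. The calls of Glud1 against the hippocampus ended without the bulb's Gq-Saline replicate 2 (adjusted p = 0.0624) or 3 (0.0692) or its Gq-CNO replicate 3 (0.0705), with a range over alternatives of 0.00215 to 0.26. Without the trend Glud1 (0.134 against the cortex and 0.26 against the hippocampus) and Glul (0.0988 against the hippocampus) were not called. From the wider list, 3 of 22 genes were called higher against the cortex and 2 against the hippocampus, namely Slc25a18 (3.2 and 2.36), the serine and alanine transporter gene Slc1a4 (2.20 and 2.08) and, against the cortex, Slc17a6 (3.56), the gene of another vesicular glutamate transporter. Slc17a6 was low, at 4.04 to 30.2 RPM in the bulb and 0 to 48.9 RPM (median 0) in the cortex, which overlap.

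In GFP astrocytes of the olfactory bulb, Slc1a2 and Glul were lower in CNO-control than in untreated mice. The comparison sets CNO-control mice, which lack the Gq label, beside untreated mice and not beside mice labelled saline. An effect of CNO therefore cannot be told apart from other differences between these groups, such as those in depth, Malat1 and markers given below. Slc1a2 had 112328, 84565 and 88147 normalised reads in the CNO-control libraries (reads divided by a factor for each library, as deposited, 95013 ± 15101, SD, n = 3) and 164511, 163926 and 166693 in the untreated ones (165043 ± 1458). All CNO-control libraries are below the untreated ones, at -0.81 on the log2 scale (SE 0.11, limma adjusted p = 0.000868, 1.75-fold). Glul had 19772, 16347 and 15867 normalised reads in CNO-control libraries and 32876, 24996 and 28893 in untreated ones, again without overlap (-0.74, SE 0.13, adjusted p = 0.00291, 1.67-fold lower).

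The remaining members ranged more widely. Glud1, with 10906, 9003 and 8943 against 12315, 12037 and 14805 normalised reads, was lower, at -0.44 (SE 0.12, adjusted p = 0.0351). That call ended without CNO-control replicate 2 (0.141) or 3 (0.143) or untreated replicate 3 (0.0885), with no filter (0.0882), without the trend (0.303), and with TMM (0.0559), RPM (0.318) or quantile scaling, the last turning the sign (0.01, adjusted p = 0.933, range over alternatives 0.0142 to 0.933). Slc7a11, with 2523, 3537 and 2240 against 1838, 1632 and 2182 normalised reads, was at 0.54 (SE 0.18, adjusted p = 0.0692), and RPM scaling (0.0138), quantile normalization (0.012) and DESeq2 (0.0333) called it, over a range of 0.012 to 0.317. Slc1a3 was at -0.22 (SE 0.11, adjusted p = 0.235), Got1 at 0.58 (SE 0.36), Slc38a3 at 0.13 (SE 0.14), Slc38a1 at 0.04 (SE 0.28) and Slc1a1, with 0 to 20 reads in untreated libraries, at 2.76 (SE 1.18, adjusted p = 0.15). Without untreated replicate 2, which held the 20 reads, Slc1a1 was called (4.24, adjusted p = 0.017).

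Of the 9 members 3 were called lower and 0 higher, where 6.88% and 5.29% of 10940 genes were. With RPM scaling, 1175 genes were higher and 476 lower, against 579 and 753 here, and the median difference of all genes was 0.37 in place of 0.11. Without the mean-variance trend limma called 0 members, and Slc1a2 then had an adjusted p = 0.107 and Glul 0.138, over ranges of 3.39e-07 to 0.107 and 1.70e-05 to 0.138. Several values moved with this comparison. The CNO-control libraries had 6619479 to 8577907 reads and the untreated ones 1724893 to 2964862. The nuclear RNA Malat1 took 2.37% to 4.10% of reads in CNO-control and 0.254% to 0.428% in untreated libraries. Of 12 astrocyte markers 1 was called higher and 4 lower (median 0.05, sums of 20379 to 22102 against 18056 to 20713 RPM), 8 of 10 microglia markers were lower (sums of 105 to 174 against 482 to 634 RPM), and 3 of 4 ensheathing glia markers were higher (1696 to 3047 against 778 to 1149 RPM). Of 7 tested oligodendrocyte markers 2 were called higher and 1 lower (median 1.07, sums of 1938 to 2749 against 1052 to 1463 RPM), and 1 of 11 neuron markers was called higher. Their part in the member values was not tested.

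The wider list had 21 genes tested, with 5 called higher and 1 lower. Slc38a2, the gene of the widely expressed amino acid transporter SNAT2, was higher by 1.83 (SE 0.23, limma adjusted p = 0.000395), Slc17a6 by 5.87 (SE 1.03), the mitochondrial aspartate and glutamate carrier gene Slc25a13 by 3.41 (SE 1.01) and Slc1a4 by 0.68 (SE 0.20).

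In the mCh astrocytes of the olfactory bulb, Slc1a2, Slc38a3 and Slc1a1 were lower in the libraries labelled Slc22a3-cKO than in the flox controls. The targeted gene cannot check these labels, since Slc22a3 had 0 reads in each flox control and 0, 0 and 12 reads in the libraries labelled Slc22a3-cKO. Slc1a2 had 6178, 2986 and 8354 normalised reads in the libraries labelled Slc22a3-cKO (5839 ± 2700, SD, n = 3) and 17067, 46624 and 17352 in the flox controls (27014 ± 16983). The groups do not overlap, and flox control replicate 2 stands high. The difference was -2.16 on the log2 scale (SE 0.45, limma adjusted p = 0.0328, 4.47-fold lower). Slc38a3 had 25.6, 78.7 and 120.1 against 386.9, 946.6 and 426.3 normalised reads, and was lower, at -3.09 (SE 0.64, adjusted p = 0.0323). Slc1a1 had 9.75, 10.7 and 29.4 against 181.2, 381.6 and 137.6, and was lower, at -3.77 (SE 0.80, adjusted p = 0.0343), on 8 to 23 reads a library in the lower group.

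Glul, the most abundant member per length in both groups, had 12060, 7598 and 16805 against 12094, 20035 and 15123 normalised reads. Its groups overlap (-0.42, SE 0.34, adjusted p = 0.572). Slc1a3 was at -0.72 (SE 0.34, adjusted p = 0.285), Glud1 at -0.93 (SE 0.36, 0.188), Slc38a1 at -0.67 (SE 0.35), Got1 at 0.23 (SE 0.35) and Slc7a11, with 7293, 2547 and 11307 against 4642, 5809 and 5660 normalised reads, at 0.15 (SE 0.45). Within libraries, the Slc1a2 to Slc1a3 ratio of reads was 0.796 to 1.32 in the libraries labelled Slc22a3-cKO and 2.01 to 3.66 in the flox controls, and the Glul to Slc1a2 ratio 1.95 to 2.54 against 0.430 to 0.872.

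Of the 9 members 3 were called lower, where 1.17% of 13465 genes were, and 0 higher, where 1.37% were. RPM scaling gave 152 genes higher and 221 lower, in place of 184 and 157, and a median difference of all genes of -0.29 in place of -0.10. These calls are fragile. Slc1a2 lost its call without flox control replicate 2 (adjusted p = 0.0837) or the libraries labelled Slc22a3-cKO replicate 1 (0.114) or 2 (0.102), with a pseudocount of 0.1 (0.0516) and without the trend (0.174), while its difference stayed between -2.6 and -1.68 and its adjusted p between 0.00025 and 0.174 over all alternatives. Slc38a3 and Slc1a1 each lost theirs without any 1 library except Slc22a3-cKO replicate 3, Slc38a3 also without the trend (0.104) and Slc1a1 with no filter (0.0504), with ranges of 6.20e-05 to 0.198 and 8.28e-06 to 0.265. Markers moved too: 11 of 12 astrocyte markers were lower (2 called, median -0.85, sums of 904 to 3624 against 3471 to 6345 RPM), as were 11 of 11 neuron markers (2 called, median -2.53), 8 of 8 oligodendrocyte markers (0 called, median -1.74) and 4 of 4 precursor markers (1 called, median -4.08), and 9 of 10 microglia markers were higher (0 called, median 1.00). Their part in the member values was not tested. Of 24 tested genes of the wider list 0 were called, the smallest adjusted p being that of Slc17a7 (-2.10, SE 0.54, 0.0654), with Slc25a18 at -2.98 (SE 0.90, 0.0977).

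**Figure D4:**
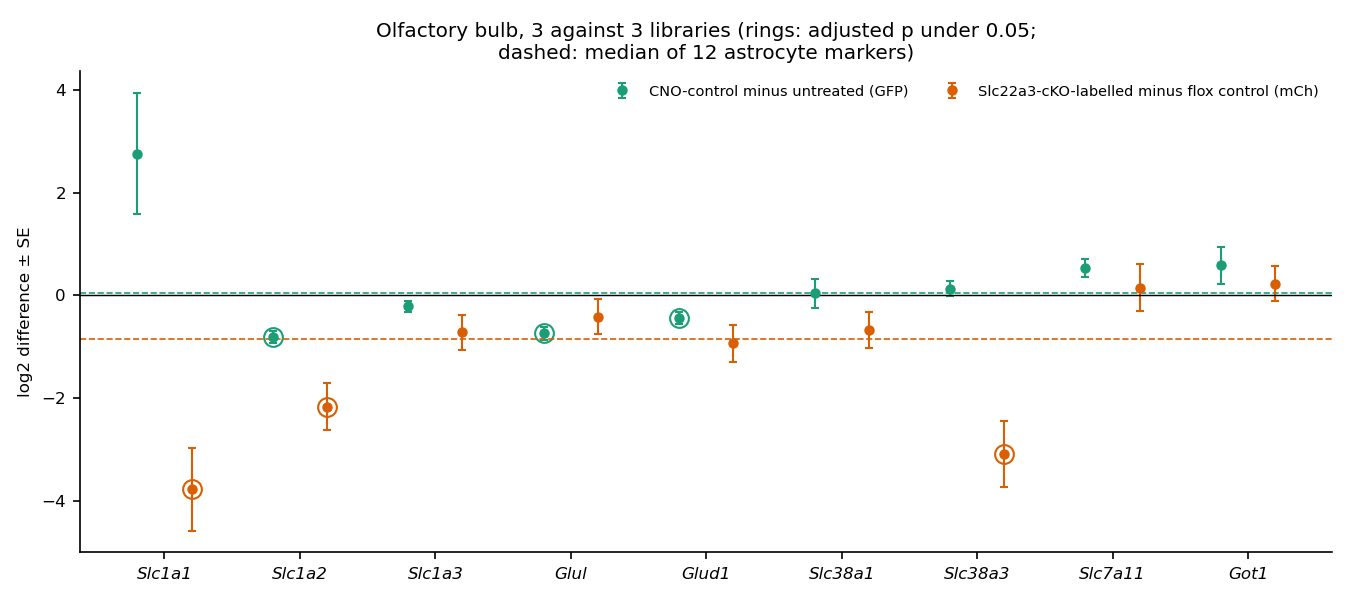
Log2 difference with SE bars of the 9 genes in the olfactory bulb, CNO-control minus untreated (green) and libraries labelled Slc22a3-cKO minus flox control (orange), 3 against 3 libraries each. Rings mark an adjusted p under 0.05 and dashed lines the astrocyte marker medians (0.05 and -0.85): Slc1a2 is ringed in both, at -0.81 and -2.16.

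In Slc7a11 the CNO-control libraries lay above the other GFP libraries, while the mCh astrocytes overlapped with both and lay above the sorts titled mCh neurons. Slc7a11 had 620 to 980 RPM in the CNO-control libraries and 232 to 1181 RPM in the mCh astrocytes, against 197 to 581 RPM in the other GFP libraries and 5.55 to 108 RPM in the sorts titled mCh neurons. Microglia marker sums overlap between the mCh astrocytes (4282 to 10726 RPM) and the sorts titled mCh neurons (3721 to 12537 RPM). Of all reads, Malat1 took 1.65% to 5.73% in the libraries labelled flox control, Slc22a3-cKO or CNO-control, 0.0544% to 1.02% in the other GFP libraries and 0.0662% to 0.390% in the sorts titled neurons. The tables were normalised separately, so these levels are a description, and their relation was not tested.

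Gq-CNO and Gq-Saline mice were compared by their treatment label, and no member passed in any region or sort. In GFP astrocytes of the olfactory bulb, Slc1a2 had 39574, 30656 and 33067 RPM with Gq-CNO and 33160, 34429 and 37668 RPM with Gq-Saline. The groups overlap, and the difference was -0.02 (SE 0.10). Glul was at 0.03 (SE 0.10), Slc1a3 at 0.02 (SE 0.10) and Glud1 at 0.01 (SE 0.12), so that the 4 most abundant members lay within 0.03 of 0 in that region. In the cortex Slc1a2 was at 0.38 (SE 0.23) and Glul at 0.33 (SE 0.21), and in the hippocampus at -0.03 (SE 0.21) and -0.14 (SE 0.17).

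limma called 0 of 9 members in the GFP sorts of the olfactory bulb, where 0.00847% of 11810 genes were called. It called 0 of 8 in the cortex, where Slc1a1 was too low to be tested, and 0 of 9 in the hippocampus, each with 0% of genes called. In the mCh sorts it called 0 of 9 in each region (0% of genes). At an unadjusted p under 0.05 stood 0 members in the GFP sorts and 2 in the mCh sorts of the olfactory bulb, namely Slc38a3 (0.77, SE 0.32) and Slc1a3 (0.58, SE 0.28). edgeR, DESeq2 and every other alternative called 0 members as well. In the mCh sorts of the olfactory bulb markers moved too, with 0 called. There 11 of 12 astrocyte markers (median 0.55) and 9 of 10 microglia markers (median 0.30) were higher with Gq-CNO. Of 11 neuron markers 10 were lower (median -0.59). Their part in the member values was not tested.

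Averaged over the regions of the mCh sorts, Glud1 had the smallest unadjusted p of the 9 members. In the hippocampus it had 587, 625 and 639 RPM with Gq-CNO and 415, 497 and 407 RPM with Gq-Saline, without overlap, at 0.46 (SE 0.25). In the cortex it had 416, 877 and 706 RPM against 328, 427 and 447 RPM, which overlap, at 0.61 (SE 0.32). In the olfactory bulb it had 920, 1010 and 1200 RPM against 491, 878 and 940 RPM, at 0.46 (SE 0.26). Got1 did not overlap in the cortical mCh sorts, with 144, 107 and 136 against 95.1, 64.8 and 47.7 normalised reads, at 0.93. How often genes at large do not overlap in these comparisons was not counted, so a lack of overlap is only a description. Averaged over the 3 regions in 1 fit of 18 libraries, the Glud1 difference was 0.51 (SE 0.16, unadjusted p = 0.00255, limma adjusted p = 0.88), and it did not pass, as 0% of genes did in either averaged fit. The averages of all members lay between -0.22 and 0.51 in the mCh sorts and between -1.12 (Slc1a1) and 0.12 in the GFP sorts. Slc1a1 was near the floor there, at 0 to 22.4 RPM in cortical GFP libraries (median 0.86) and 0 to 5.30 RPM in hippocampal ones (median 1.77). A test of whether the Gq-CNO difference itself differs between regions called 0 members in 6 contrasts of regions within a sort (0% of genes, smallest adjusted p = 0.794), with 1 of 54 values at an unadjusted p under 0.05. Of the wider list, 18 to 24 genes were tested in each region and sort, and 0 were called.

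**Figure D5:**
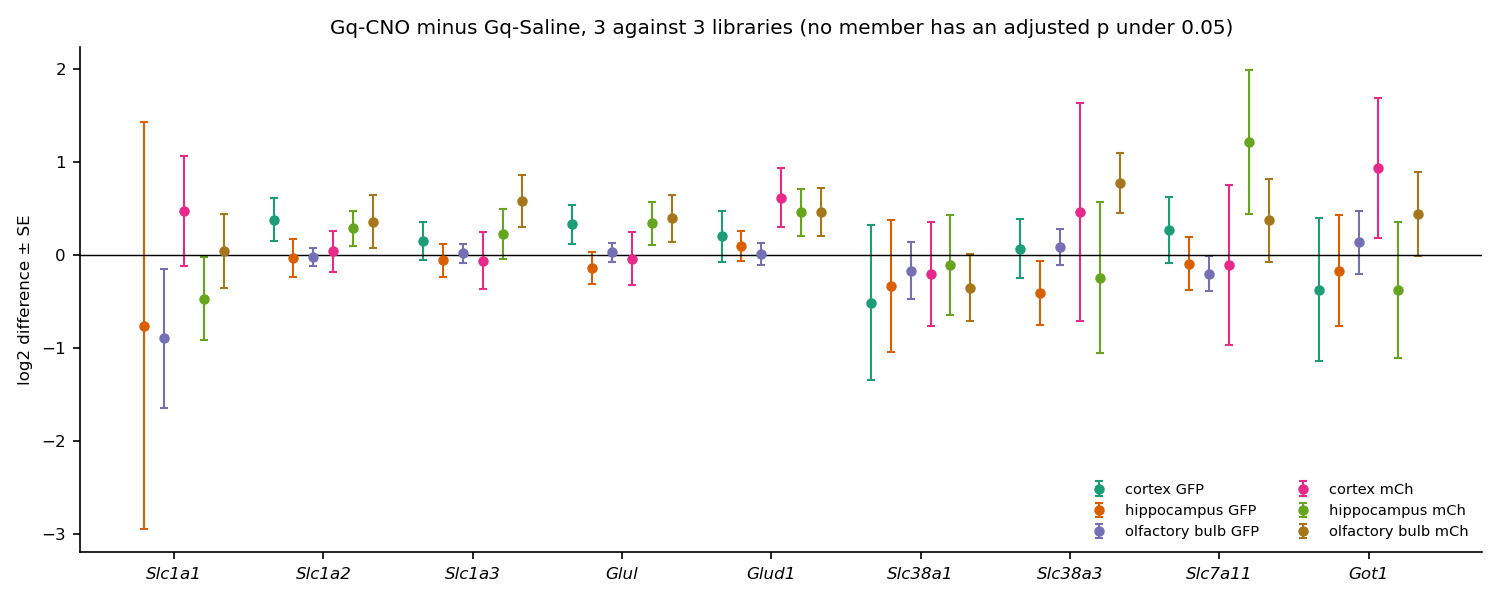
Log2 difference, Gq-CNO minus Gq-Saline, with SE bars, of the 9 genes in GFP and mCh sorts of 3 regions, 3 against 3 libraries each; Slc1a1 was not tested in cortical GFP sorts. Slc1a2 lies between -0.03 and 0.38, and the widest bars belong to Slc1a1 in hippocampal GFP sorts.

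The genes whose levels followed a member most closely were found by Pearson's r over the 16 group means of log2(RPM + 1), among 11463 genes with a mean of at least 10 RPM in at least 1 group. The r values describe these groups, of which those of 1 sort share their cell type makeup. Slc1a2 was closest to Grm3 (0.985), a glutamate receptor gene, then to Ddah1 and Dtna (0.980 each). Among the genes close to Slc1a3 were Sparcl1 (0.990) and Nwd1 (0.984). For Glul the leading genes were Sfxn5, Scd2 and Lgalsl (0.988 to 0.989), for Glud1 Gstm1, Psd2 and Tspan7 (0.981 to 0.986), and for Slc38a3 Igfbp2, the GABA transporter gene Slc6a11 and Elovl2 (0.972 to 0.974). Slc1a1 was closest to Map6d1 (0.967), Dixdc1 and the neuropeptide gene Cck (0.955), and Slc38a1 to Prune2 (0.946), Lonrf1 and the synaptic vesicle gene Syt1 (0.938). Slc7a11 was closest to Ddhd1 (0.969), Mfap3l and Cep85l (0.950), and Got1, the member with the lowest leading r, to Tbc1d4 (0.929), Zfp276 and the immediate early gene Junb (0.905).

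By GENCODE vM21 on mm10, Slc1a2 (ENSMUSG00000005089.15) lies on chromosome 2 between 102658659 and 102790784 and Slc1a3 (ENSMUSG00000005360.14) on chromosome 15 between 8634124 and 8710764. Glul (ENSMUSG00000026473.15) lies on chromosome 1 between 153899944 and 153909723, and Slc38a3 (ENSMUSG00000010064.15) on chromosome 9 between 107650634 and 107669530. Glud1 (ENSMUSG00000021794.16) lies on chromosome 14 between 34310727 and 34345265, Slc7a11 (ENSMUSG00000027737.10) on chromosome 3 between 49892526 and 50443614, and Slc38a1 (ENSMUSG00000023169.15) on chromosome 15 between 96571418 and 96642913. Slc1a1 (ENSMUSG00000024935.11) and Got1 (ENSMUSG00000025190.13) lie on chromosome 19, between 28835049 and 28913960 and between 43499752 and 43524605.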

How the data were processed

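The deposited values are a normalised signal, 1 column a library. The submitters' processing notes name FastQC 0.11.7, MultiQC 1.11, STAR 2.5.0a, DESeq2 1.30.1 and the build mm10, without saying what each did. The gene counter is not given in the sources used here. Libraries were made, per the labels' protocols, from 10 ng of total RNA. Each table was normalised separately. Dividing each column by its smallest value above 0 gave whole reads for 100% of values, within 0.05. Pairs of groups were fitted with limma 3.58.1 (R 4.3.3, mean-variance trend) on log2(value + 1). Region and sort fits used recovered reads with median-of-ratios size factors. A gene was tested if 3 or more libraries had a value of 10 or more, and called if its Benjamini-Hochberg adjusted p was under 0.05. edgeR 4.0.16 and DESeq2 1.42.0 on recovered reads, other scalings, pseudocounts and filters, and left-out libraries were alternatives. The fits were tested on simulated data.

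All 9 members were named, up to 4 wider-list genes per comparison by smallest unadjusted p, and 3 most alike genes per member, of which 1 is not reported here. Members and lists were chosen with earlier results of these data known. In 4 cortical and hippocampal groups the third column carries the number 4 and was mapped to its group only. Columns of the Slc22a3-cKO label have RFP in their names and those of the flox controls mCh, although both groups are titled mCh astrocytes. The labels do not tie libraries to animals: the spread behind a p-value is that of these libraries only and may be technical. RPKM uses GENCODE vM21 exon lengths. Reads are not independent molecules, and their strand setting is not given in the sources used here. No sample was left out.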

Additional observations from a re-analysis of the deposited data

How the results depend on the processing

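Among the counts of members called and the read ratios, 261 of 281 values under alternatives other than leaving out a library stayed on their side of the threshold or, for counts, within 1.5 times. Many of these are counts of 0 members in comparisons where few or no genes passed, which had little room to change. A count also does not show which members were called. For the olfactory bulb against the cortex in GFP sorts, 1 member in place of 2 was called by edgeR, by DESeq2, with TMM or RPM scaling, with a pseudocount of 0.1 or 10, with no filter or a filter of 50, and without the trend, and 4 without the libraries that have no replicate number. That last setting called 1 member between cortex and hippocampus. Without the trend 0 members were called for CNO-control, 1 for the libraries labelled Slc22a3-cKO, 1 for the bulb against the hippocampus in GFP and 2 in mCh sorts. With a replicate block 0 members were called for the libraries labelled Slc22a3-cKO. Same-numbered libraries did not deviate together in that comparison (lowest correlation -0.09), so the block there shows only a shared number. Across regions and sorts this was not checked. The block raised the count from 4 to 5 for the bulb against the cortex in mCh sorts, and changed no other count. Leaving out 1 library gave 1 to 3 members (bulb against cortex, GFP), 2 to 4 (CNO-control), 0 to 3 (libraries labelled Slc22a3-cKO), and, in mCh sorts, 4 to 5 against the cortex and 3 to 5 against the hippocampus. With Gq-Saline libraries alone the log2 ratio differences were -1.0 and -1.12 for Slc1a2 to Slc1a3, and 1.38 and 1.45 for Glul to Slc1a2 (adjusted p = 0.15 each, exact permutation, where 3 against 3 cannot pass). Under quantile normalization Glud1 turned to 0.0149 for CNO-control and Glul to 0.251 for the bulb against the cortex; the cause was not tested. Of 224 single member values, 5479 alternatives gave 61 lost and 19 gained calls and 265 sign changes among values that neither setting called. The shallowest libraries, both cortical, held 228048 and 325129 reads.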
